A study of Mus musculus with 14 samples.

Results

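The genes described here encode the enzymes that make cholesterol and fatty acids, together with the SREBP regulators of both pathways, and they were followed in the lungs of young mice that lacked either of 2 related proteins, ataxin-1-like or ataxin-1. The members were 34 genes listed by their role in these pathways. Each was matched to its probe set by symbol, from the platform's gene table or, for Acat2, through the Entrez number. Of these 34, 32 were measured among 21212 probe sets. Hmgcs1 and Idi1 were not matched to a probe set and were not analysed here. The measured members were 5 enzymes of the mevalonate arm, 11 enzymes from squalene synthesis to cholesterol, the sterol carrier Stard4, 5 regulators, 3 enzymes of fatty acid synthesis, 4 desaturases and 3 elongases.

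RNA was taken from whole lungs at P6, the sixth day after birth, and each sample went on 1 Affymetrix mouse Gene ST 1.0 array. The Atxn1L set held 4 Atxn1L -/- and 4 WT samples and the Atxn1 set held 3 Atxn1 -/- and 3 WT samples, all of strain C57BL/6J, with the mice of each set bred from heterozygous parents. The labels name no treatment in either set. The labels mention pairs of WT and knockout mice without tying arrays to pairs, and they state neither sex nor litter nor which part of either gene was altered. In whole lung, fewer cells of a type and less RNA per cell cannot be told apart. The labels give replicate numbers and no animal identities, so the p-values measure only the spread between these samples.

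Cells make cholesterol from acetyl-CoA through mevalonate, farnesyl diphosphate and squalene. They make fatty acids by adding units from malonyl-CoA to a growing chain, before desaturation and further elongation. SREBP transcription factors are held in the endoplasmic reticulum by Scap and the Insig proteins while sterols are plentiful. When sterols fall, Scap carries them to the Golgi, where proteases release the active factor, which then switches on sterol and fatty acid genes, Insig1 among them. In the lung around birth, alveolar type 2 cells draw on fatty acid synthesis for the phospholipids of surfactant.

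All values are log2 RMA levels, a scale that has no zero, on which a difference of 1 is a 2-fold difference. The sets were normalized apart, so each knockout was compared with its own WT arrays, and levels are not compared between sets or between genes. The median level of an array lay between 8.44 and 8.53 for the Atxn1L set and between 9.21 and 9.24 for the Atxn1 set. The deleted gene checked the label in the Atxn1L set, where Atxn1l lay at 6.86 ± 0.16 (SD, n = 4) in Atxn1L -/- and 9.45 ± 0.12 (SD, n = 4) in WT, 5.99-fold lower (limma adjusted p = 1.18e-06). In the Atxn1 set the Atxn1 probe set lay at 11.02 ± 0.02 (SD, n = 3) in Atxn1 -/- and 11.01 ± 0.11 (SD, n = 3) in WT, and the sources used here do not place its probes relative to the altered part of the gene, so it checks nothing. Replicate 1 of Atxn1L -/- stood apart from the other arrays on the leading principal component, which held 31.3% of the variance in its set. In the Atxn1 set replicate 1 of WT stood apart on a component with 46.7%. Xist, the RNA of the inactive X chromosome, was low on replicate 1 of Atxn1L -/- (7.04) and on replicates 1 and 2 of its WT (6.32 and 6.59), and at 13.09 to 13.29 on the other 5 arrays. In the Atxn1 set it was low on replicate 1 of Atxn1 -/- (6.83) and replicates 1 and 2 of WT (6.89 and 6.94), and 12.97 to 13.07 on the other 3.

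Promoter sequences are shown for the 4 members whose knockout and WT arrays did not overlap in the Atxn1L set (12.5% of members, against 5.32% of all probe sets). They were picked from these same data, and none passed the adjusted test given below. Srebf2 encodes the SREBP that acts mainly on cholesterol genes, Insig1 and Insig2 encode the proteins that retain Scap, and Fasn encodes fatty acid synthase. Each line gives the 150 bases before a transcription start, 5′ to 3′ on the gene's strand, from RefSeq on the mouse assembly GRCm38.p6. Capitals mark CCAAT, the box bound by NF-Y, which reads ATTGG on the other strand, and CACGTG, the E-box form bound by USF and related factors. Srebf2 lies at chr15:82147119-82147268 (plus strand), Insig1 at chr5:28071262-28071411 (plus strand), Insig2 at chr1:121332590-121332739 (minus strand) and Fasn at chr11:120824548-120824697 (minus strand). Insig2 had 3 windows in the table, and the one with the most matches is printed.
Srebf2: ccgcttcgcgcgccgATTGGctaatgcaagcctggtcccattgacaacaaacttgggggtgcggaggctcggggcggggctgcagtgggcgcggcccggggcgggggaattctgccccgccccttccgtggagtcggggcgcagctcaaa
Insig1: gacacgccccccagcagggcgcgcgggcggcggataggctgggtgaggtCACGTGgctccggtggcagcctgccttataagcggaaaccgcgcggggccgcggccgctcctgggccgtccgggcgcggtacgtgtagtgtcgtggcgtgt
Insig2: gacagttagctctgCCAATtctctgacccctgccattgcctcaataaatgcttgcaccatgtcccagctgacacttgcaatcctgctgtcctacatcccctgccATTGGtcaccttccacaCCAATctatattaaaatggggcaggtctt
Fasn: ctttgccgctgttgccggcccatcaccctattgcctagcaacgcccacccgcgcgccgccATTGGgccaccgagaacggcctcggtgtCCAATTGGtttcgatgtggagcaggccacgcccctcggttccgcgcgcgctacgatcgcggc
In these stretches Srebf2 held 1 CCAAT box, Insig1 held 1 E-box, and Insig2 and Fasn held 3 CCAAT boxes each, of which a pair in Fasn overlap as CCAATTGG.

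RefSeq windows, from 250 bases before to 50 after a start, were found for 25 of the 32 measured members. CCAAT was in a window of 20 of these 25 genes (80%), against 41.1% of the 27025 genes in the table. CACGTG was in 6 of 25 (24%), against 8.09% of all genes. TCACNCCAC, 1 form of the sterol regulatory element bound by SREBPs, with N for any base, was in none of the 25 and in 1.44% of all genes. Both strands were searched for each motif, and these matches describe letters in a window and are not shown to be sites.

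In Atxn1L -/- lung, no member passed the test over all probe sets (0 of 32, limma, Benjamini-Hochberg adjusted p under 0.05), where 9 of 21212 probe sets, 0.0424%, did. The smallest adjusted p among the members was 0.434, for Fasn. An unadjusted p under 0.05 was found for 5 of 32 members (15.6%), against 8.5% of all probe sets. Of these, Fasn, Srebf2, Acly and Insig1 had higher mean levels in Atxn1L -/- (4 of 32, against 4.54% of all probe sets) and Insig2 had a lower one (1 of 32, against 3.95%). The 4 knockout arrays lay wholly above or below the 4 WT arrays for 4 of 32 members (12.5%), against 5.32% of all probe sets. They were wholly above for Srebf2, Insig1 and Fasn (3 of 32, against 2.76%) and wholly below for Insig2 (1 of 32, against 2.56%). These differences were small: the members ran from -0.11 (Stard4) to 0.18 (Fdps), and the 95% interval that reached farthest from 0, that of Fdps, ended at 0.39, or 1.31-fold. Mean levels were higher in Atxn1L -/- for 24 of 32 members, with a median difference of 0.07, against 51.3% of all probe sets and a median of 0.00.

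**Figure D1:**
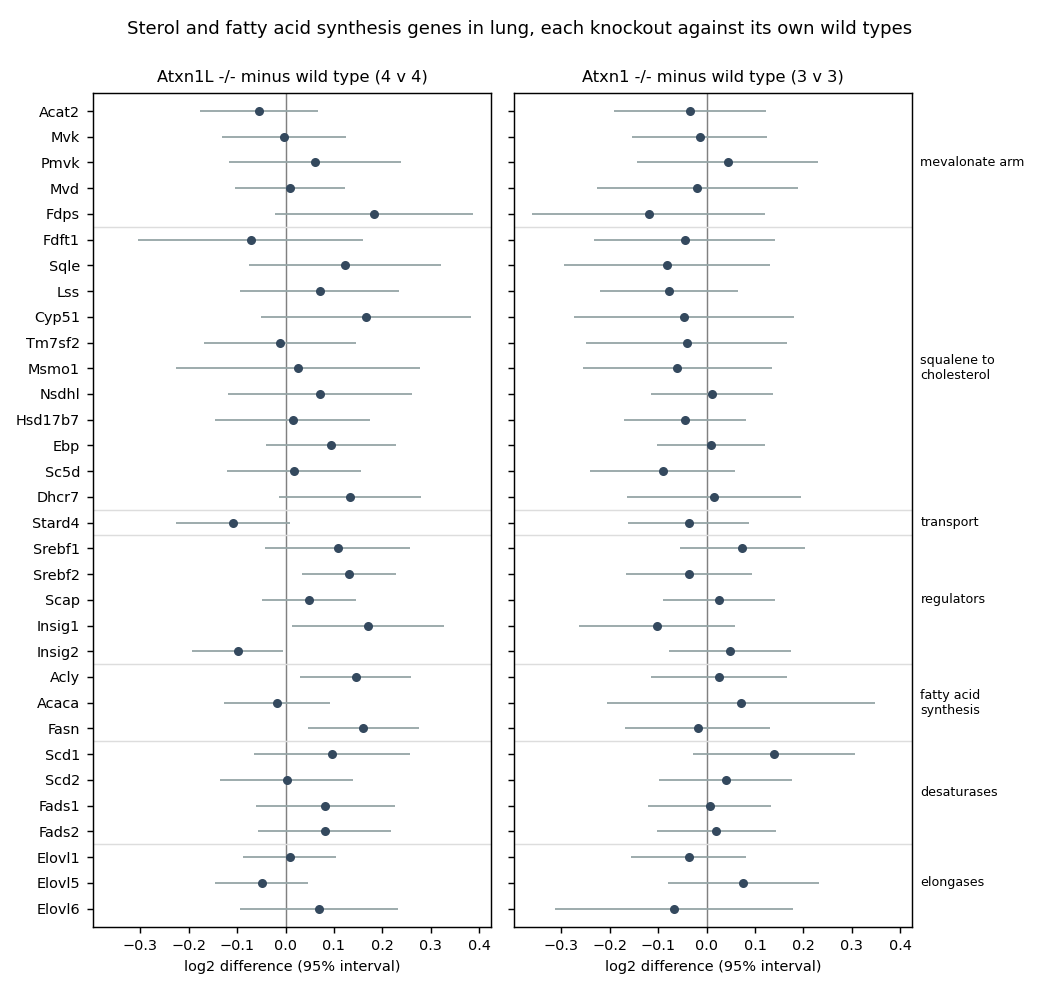
Log2 difference of each of the 32 measured genes, knockout minus WT, on the horizontal axis, with Atxn1L -/- (4 against 4 arrays) on the left and Atxn1 -/- (3 against 3) on the right; points are limma estimates, lines are 95% intervals and genes are grouped by role. On the left 5 intervals leave out 0 (Srebf2, Insig1, Insig2, Acly and Fasn) before any adjustment, and on the right none does.

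Among the regulators, 4 of 5 had higher means in Atxn1L -/- and 1 a lower mean, with a median difference of 0.11. Srebf2 was at 10.53, 10.50, 10.56 and 10.52 on replicates 1 to 4 of Atxn1L -/- and at 10.45, 10.37, 10.36 and 10.41 on those of WT. All 4 knockout arrays were above all 4 WT arrays. The difference was 0.13 (SE 0.04, 95% interval 0.03 to 0.23, 1.10-fold; limma adjusted p = 0.463).

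Insig1, itself switched on by SREBP, was at 10.76, 10.64, 10.63 and 10.76 in Atxn1L -/- and 10.33, 10.59, 10.61 and 10.58 in WT. The groups did not overlap, but the highest WT and the lowest knockout array were 10.61 and 10.63, and WT replicate 1 was far below the other WT arrays. The difference was 0.17 (SE 0.07, 95% interval 0.01 to 0.33, 1.13-fold; limma adjusted p = 0.556), and without WT replicate 1 it was 0.10.

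Insig2, the other retention protein, was at 10.03, 10.03, 10.01 and 9.9998 in Atxn1L -/- and 10.10, 10.08, 10.12 and 10.16 in WT. Here every knockout array was below every WT array. The difference was -0.10 (SE 0.04, 95% interval -0.19 to -0.0045, 0.934-fold, limma adjusted p = 0.568). With 1 array left out it was -0.11 to -0.08, and its unadjusted p was under 0.05 only without WT replicate 2.

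Srebf1, the SREBP gene more closely tied to fatty acid synthesis, was at 9.42, 9.50, 9.58 and 9.38 in Atxn1L -/- and 9.39, 9.51, 9.27 and 9.29 in WT. The groups overlapped through WT replicates 1 and 2. Its difference was 0.11 (SE 0.07, 95% interval -0.04 to 0.26; limma adjusted p = 0.721), close in size to that of Srebf2 but with a wider interval. Scap, the escort of the SREBPs, differed by 0.05 (SE 0.04, limma adjusted p = 0.827), and its groups overlapped.

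**Figure D2:**
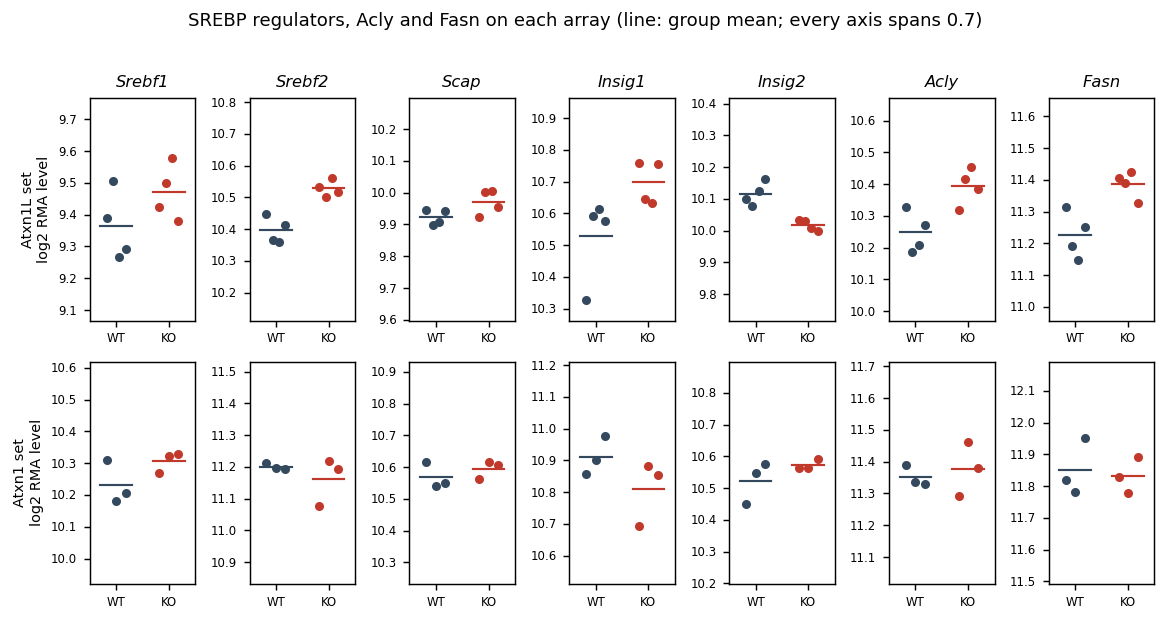
Log2 RMA level (vertical axes, each spanning 0.7) of the 5 regulators, Acly and Fasn on every array, with the Atxn1L set above and the Atxn1 set below; points are arrays and lines are group means. In the Atxn1L set Srebf2, Insig1 and Fasn have every knockout point above and Insig2 every one below the WT points, and in the Atxn1 set all 7 genes overlap.

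In fatty acid synthesis, both Acly and Fasn had higher means in Atxn1L -/-, and Acaca did not differ by more than its error. Acly, which makes cytosolic acetyl-CoA from citrate, was at 10.32, 10.41, 10.45 and 10.38 in Atxn1L -/- and 10.33, 10.19, 10.21 and 10.27 in WT. Knockout replicate 1 was just below WT replicate 1, and the other 3 knockout arrays were above all WT arrays. The difference was 0.14 (SE 0.05, 95% interval 0.03 to 0.26, 1.11-fold; limma adjusted p = 0.498).

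Fasn, which builds palmitate, was at 11.41, 11.39, 11.42 and 11.33 in Atxn1L -/- and 11.32, 11.19, 11.15 and 11.25 in WT. The groups did not overlap, although knockout replicate 4 and WT replicate 1 were at 11.33 and 11.32. Fasn differed by 0.16 (SE 0.05, 95% interval 0.05 to 0.27, 1.12-fold; limma adjusted p = 0.434). Acaca, the cytosolic acetyl-CoA carboxylase, differed by -0.02 (SE 0.05, 95% interval -0.13 to 0.09; limma adjusted p = 0.960).

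The desaturases all had means slightly higher in Atxn1L -/-, by 0.00 to 0.10, and none had an unadjusted p under 0.05. Scd1, a stearoyl-CoA desaturase, was at 12.91, 12.76, 12.77 and 12.71 in Atxn1L -/- and 12.54, 12.63, 12.82 and 12.78 in WT. WT replicates 1 and 2 were below all knockout arrays, and WT replicates 3 and 4 were above 3 of the 4. The difference was 0.10 (SE 0.07, 95% interval -0.07 to 0.26; limma adjusted p = 0.779). Its relative Scd2 was at 12.60, 12.67, 12.71 and 12.73 against 12.65, 12.54, 12.74 and 12.77, a difference of 0.00 (SE 0.06, 95% interval -0.14 to 0.14; limma adjusted p = 0.996). Fads1 and Fads2, the desaturases of polyunsaturated fatty acids, each differed by 0.08 (SE 0.06 for both).

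The 3 elongases showed no common direction in Atxn1L -/-. Elovl5, which extends polyunsaturated fatty acids, was at 11.81, 11.91, 11.87 and 11.89 in Atxn1L -/- and 11.91, 11.92, 11.91 and 11.95 in WT. Replicate 1 of Atxn1L -/- was the lowest array, and the groups overlapped. The difference was -0.05 (SE 0.04, 95% interval -0.15 to 0.05; limma adjusted p = 0.818). Elovl6, which extends palmitate, differed by 0.07 (SE 0.07) and Elovl1, which extends very long chains, by 0.01 (SE 0.04).

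The sterol enzymes had a larger spread between arrays of 1 genotype than the fatty acid enzymes, a description with no test. The median SD between WT arrays was 0.12 for the 16 sterol enzymes, 0.07 for the 10 fatty acid enzymes and 0.09 for all probe sets, and between Atxn1L -/- arrays it was 0.11, 0.05 and 0.08. Of the 16 sterol enzymes 12 had higher means in Atxn1L -/-, with a median difference of 0.04, and none had an unadjusted p under 0.05. In the mevalonate arm, Fdps, farnesyl diphosphate synthase, was at 10.11, 9.76, 9.94 and 9.91 in Atxn1L -/- and 9.52, 9.87, 9.78 and 9.81 in WT. Knockout replicate 1 was the highest and WT replicate 1 the lowest array, and knockout replicate 2 lay below 3 WT arrays. The difference was 0.18 (SE 0.09, 95% interval -0.02 to 0.39, 1.14-fold; limma adjusted p = 0.630), and it was 0.11 without WT replicate 1 and 0.12 without knockout replicate 1. The other 4 measured enzymes of this arm, Acat2 (acetoacetyl-CoA formation), Mvk and Pmvk (the mevalonate kinases) and Mvd (the decarboxylase), differed by -0.06 to 0.06.

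From squalene synthesis onward, 9 of the 11 enzymes had higher means in Atxn1L -/-. Dhcr7, which makes cholesterol from 7-dehydrocholesterol, was at 9.07, 8.96, 9.04 and 8.93 in Atxn1L -/- and 8.83, 8.72, 8.96 and 8.97 in WT. WT replicates 3 and 4 lay within the knockout range, and WT replicates 1 and 2 below it. The difference was 0.13 (SE 0.07, 95% interval -0.01 to 0.28, 1.10-fold; limma adjusted p = 0.628). Cyp51, the lanosterol demethylase, differed by 0.17 (SE 0.10, limma adjusted p = 0.694), and by 0.10 without knockout replicate 1. Sqle, squalene epoxidase and a rate-controlling step, differed by 0.12 (SE 0.09, limma adjusted p = 0.766). Fdft1, squalene synthase, differed by -0.07 (SE 0.10) and Tm7sf2, a sterol reductase, by -0.01 (SE 0.07). The remaining 6 (Lss, Msmo1, Nsdhl, Hsd17b7, Ebp and Sc5d) differed by 0.01 to 0.09.

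Stard4, which carries cholesterol between membranes, was at 9.58, 9.51, 9.62 and 9.61 in Atxn1L -/- and 9.58, 9.69, 9.76 and 9.72 in WT. Of the WT arrays, replicate 1 lay within the knockout range and the other 3 were above it. The difference was -0.11 (SE 0.05, 95% interval -0.23 to 0.01, 0.928-fold; limma adjusted p = 0.623), the lowest of the 32.

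The share of sterol enzymes above their WT mean differed widely between arrays of either genotype. On Atxn1L -/- replicate 1 all 16 sterol enzymes were above their WT mean, against 4 on replicate 2, 11 on replicate 3 and 12 on replicate 4. On the WT arrays 4, 3, 12 and 14 of the 16 were above that mean on replicates 1 to 4. Over all probe sets the share above the WT mean was 52.2%, 55.3%, 54.7% and 39.9% on Atxn1L -/- replicates 1 to 4 and 41.9%, 55.3%, 60.3% and 42.7% on those of WT. The 10 fatty acid enzymes had 7, 5, 9 and 7 above it on the Atxn1L -/- arrays and 3, 1, 5 and 9 on the WT arrays, so they too were few on WT replicates 1 and 2. The median of the 16 enzymes relative to the WT mean ran from -0.08 to 0.09 among WT arrays and from -0.04 to 0.10 among Atxn1L -/- arrays. The low WT arrays, replicates 1 and 2, were those with low Xist, while Atxn1L -/- replicate 1 had low Xist and the highest sterol median of the 8 arrays, and also the highest median over all probe sets (8.53, against 8.44 to 8.48 on the other 7). With Xist as a covariate the median difference of the 32 members was 0.04 in place of 0.07, and 22 of 32 were above 0. Without Atxn1L -/- replicate 1 it was 0.04 with 20 above 0, and without WT replicate 2 it was 0.02 with 20 above 0. Without Atxn1L -/- replicates 1, 3 or 4, left out singly, 3 members had an unadjusted p under 0.05 in place of 5, against 7.94%, 6.65% and 9.54% of all probe sets in those fits. Srebf2 and Fasn were among the 3 each time. Over all fits with 1 array left out this count was 3 to 7, against 6.65% to 9.54% of all probe sets. With fewer arrays left to overlap, 7 members had groups without overlap without Atxn1L -/- replicate 2, against 8.29% of all probe sets, and 7 without WT replicate 1, against 10.4%. Over all fits with 1 array left out 4 to 7 members had no overlap, against 7.02% to 10.4% of all probe sets.

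**Figure D3:**
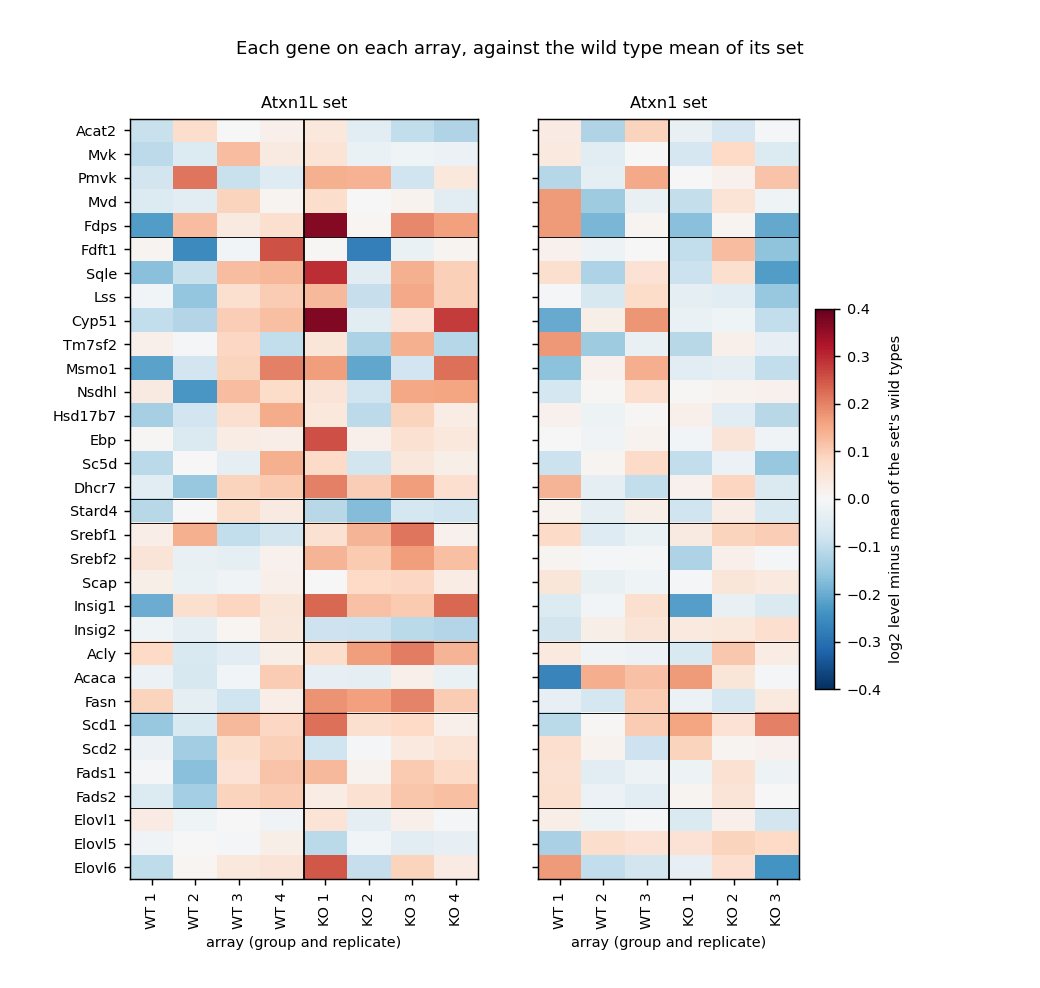
Log2 level of each of the 32 genes (rows, in order of role) on each array (columns, WT left and knockout right of the line) minus the mean of the WT arrays of its set, with red for higher and blue for lower values. Columns of 1 colour run through the sterol enzymes in both genotypes, as on Atxn1L -/- replicate 1, where all 16 are above the WT mean, and WT replicate 2, where 3 are.

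Markers of immune and proliferating cells had higher means in Atxn1L -/-, and their part in the member differences was not tested. Of 11 macrophage markers 10 had higher means in Atxn1L -/-, with 2 past the adjusted threshold (Chil3 and Msr1), a median difference of 0.55, and a log2 summed level of 12.86 to 13.50 against 12.50 to 12.58 in WT. All 9 neutrophil markers had higher means, with a summed level of 12.93 to 14.38 against 12.35 to 12.90, highest on replicate 1 of Atxn1L -/-. The 8 proliferation markers also all had higher means, and their summed level was 13.29 to 13.80 against 13.23 to 13.49. No neutrophil or proliferation marker passed the adjusted threshold. Replicate 1 of Atxn1L -/-, the highest array for these 3 lists, was the highest of the 8 arrays for 10 of the 32 members. It was also the highest for 4290 of all 21212 probe sets. Atxn1L -/- replicate 3 and WT replicate 4 were each the highest for 7 members.

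Markers of alveolar type 2 cells, lipofibroblasts and fat had summed levels that overlapped between genotypes. The type 2 list had higher means in 3 of 10, a median difference of -0.03, and a summed level of 15.90 to 15.94 in Atxn1L -/- against 15.91 to 15.97 in WT. Lamp3 was the only 1 of these 10 without overlap, against 5.32% of all probe sets. It lay at 12.10 to 12.19 in Atxn1L -/- against 12.20 to 12.29 in WT (limma adjusted p = 0.651). Of the 6 lipofibroblast markers 2 had higher means, with a median difference of -0.08 and a summed level of 13.24 to 13.37 against 13.28 to 13.45. Of the 6, Tcf21, a mesenchymal transcription factor, differed by -0.23 (SE 0.07, limma adjusted p = 0.420). Fgf10, a growth factor for lung epithelium, differed by -0.17 (SE 0.07, limma adjusted p = 0.562). Pparg and Fgfr4 differed by -0.06 and -0.10. The 2 with higher means were Plin2, by 0.14 (SE 0.09, limma adjusted p = 0.715), and Lpl, by 0.02 (SE 0.06). The groups overlapped for all 6. Markers of white and brown fat, which a dissection could carry along, had higher means in 5 of 10, with a summed level of 10.23 to 10.36 against 10.20 to 10.40. Sftpc, the surfactant protein that defines type 2 cells, had a mean of 13.90 in Atxn1L -/- and 13.95 in WT. The brown fat marker Ucp1 had means of 6.90 and 6.96, and Adipoq, of adipocytes, 4.93 and 4.91. RMA levels have no zero, so none of these can be called absent.

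Other genes of the same pathways were followed as 2 lists, and none of the 34 genes in them passed the adjusted threshold in Atxn1L -/-. Of 12 other sterol genes 7 had higher means, with a median difference of 0.01. Of the 12, 1 had an unadjusted p under 0.05, against 8.5% of all probe sets. The list does not hold every gene of the pathway, so its counts describe these 12 alone. The 1 gene was Ggps1, which makes geranylgeranyl diphosphate on a side branch, at 9.89, 9.74, 9.75 and 9.87 in Atxn1L -/- and 9.89, 10.04, 10.04 and 10.09 in WT. The groups met at replicate 1, and the difference was -0.20 (SE 0.06; limma adjusted p = 0.408).

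Of 22 other fatty acid and glycerolipid genes, 14 had higher means in Atxn1L -/-, with a median of 0.02. Of the 22, 1 (Dgat2) had an unadjusted p under 0.05, against 8.5% of all probe sets. Groups without overlap were found for 1 of the 22 (Lpcat1), against 5.32% of all probe sets. Dgat2, which completes triglycerides, was at 9.18, 8.95, 8.95 and 8.78 against 8.76, 8.87, 8.68 and 8.63, overlapping at knockout replicate 4. It differed by 0.23 (SE 0.09; limma adjusted p = 0.515). Lpcat1, which remodels surfactant phosphatidylcholine, was below WT on every knockout array, at 12.44 to 12.50 against 12.52 to 12.57, with a difference of -0.07 (SE 0.04; limma adjusted p = 0.691).

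**Figure D4:**
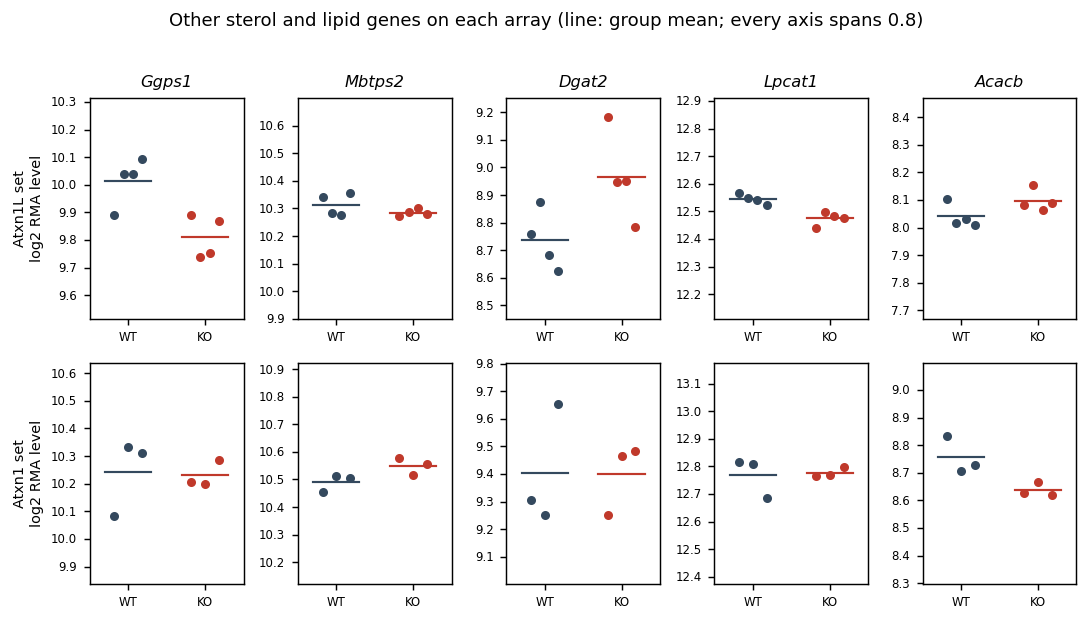
Log2 RMA level (vertical axes, each spanning 0.8) of 5 other sterol and lipid genes on every array, with the Atxn1L set above and the Atxn1 set below; points are arrays and lines are group means. In the Atxn1L set Lpcat1 lies wholly below WT and the other 4 overlap, and in the Atxn1 set Mbtps2 lies wholly above and Acacb wholly below WT.

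In Atxn1 -/- lung no member passed the test (0 of 32, limma, adjusted p = 0.999886 for each), nor did any of the 21212 probe sets (0%). No member had an unadjusted p under 0.05, against 1.22% of all probe sets (0.75% with higher and 0.467% with lower means). Nor did any member have groups without overlap, against 4.75% of all probe sets (2.85% wholly above and 1.9% wholly below WT). With fewer arrays left to overlap, 7 members had no overlap without Atxn1 -/- replicate 2 and 7 without WT replicate 1, against 11.4% and 20.4% of all probe sets. The count was 4 without WT replicate 2 (18.6% of all probe sets), 3 without Atxn1 -/- replicate 1 (10.4%) and 3 without WT replicate 3 (11.1%). An unadjusted p under 0.05 was then found for 2 members without WT replicate 1, against 4.41% of all probe sets, and for 1 without WT replicate 3, against 1.33%. The knockout mean was above WT for 14 of 32 members, against 47.3% of all probe sets, and the median difference was -0.02. The members ran from -0.12 (Fdps) to 0.14 (Scd1), and the farthest interval, that of Fdps, ended at -0.36.

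Sterol enzymes had lower means in Atxn1 -/- for 12 of 16, with a median of -0.04, and fatty acid enzymes had higher means for 7 of 10, with a median of 0.02. Fdps was at 10.68, 10.86 and 10.64 in Atxn1 -/- and 11.02, 10.66 and 10.86 in WT. Both groups spread more widely than they differed, by -0.12 (SE 0.10, 95% interval -0.36 to 0.12). Sc5d, a desaturase late in cholesterol synthesis, was at 10.34, 10.42 and 10.29 against 10.35, 10.45 and 10.52, a difference of -0.09 (SE 0.06, 95% interval -0.24 to 0.06). Stard4 was at 10.15, 10.26 and 10.17 against 10.24, 10.19 and 10.25, a difference of -0.04 (SE 0.05). On the arrays, 3, 10 and 2 of the 16 sterol enzymes were above the WT mean in Atxn1 -/- replicates 1 to 3, and 9, 4 and 13 in WT. Over all probe sets the share above the WT mean was 45.6%, 52.1% and 46.0% in Atxn1 -/- and 61.5%, 41.6% and 40.7% in WT.

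The regulators overlapped throughout in the Atxn1 set. Srebf2 was at 11.08, 11.22 and 11.19 in Atxn1 -/- and 11.21, 11.20 and 11.19 in WT, a difference of -0.04 (95% interval -0.17 to 0.09). Srebf1 was at 10.27, 10.32 and 10.33 against 10.31, 10.18 and 10.21, a difference of 0.07 (SE 0.05, 95% interval -0.06 to 0.20). Its WT replicate 1 lay among the knockout arrays, while the other 2 WT arrays were below them. Insig1 was at 10.69, 10.88 and 10.85 against 10.86, 10.90 and 10.98, a difference of -0.10 (SE 0.07, 95% interval -0.26 to 0.06). Insig2 was at 10.56, 10.56 and 10.59 against 10.45, 10.55 and 10.57, a difference of 0.05 (SE 0.05, 95% interval -0.08 to 0.17). For both Insig genes the interval held 0 and the signs were opposite to those in Atxn1L -/-.

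Among the fatty acid enzymes Scd1 had the largest difference, with levels of 13.11, 13.01 and 13.16 in Atxn1 -/- and 12.85, 12.96 and 13.06 in WT. Only knockout replicate 2 lay within the WT range, and the difference was 0.14 (SE 0.07, 95% interval -0.03 to 0.31, 1.10-fold). Scd2 was at 13.01, 12.93 and 12.94 against 12.99, 12.94 and 12.84, a difference of 0.04 (SE 0.06). Acaca was at 9.72, 9.60 and 9.54 against 9.28, 9.70 and 9.67, where WT replicate 1 was far below the others, and differed by 0.07 (SE 0.12). Elovl5 was at 12.18, 12.21 and 12.20 against 11.99, 12.19 and 12.18, with WT replicate 1 again the lowest, and differed by 0.08 (SE 0.07). Fasn differed by -0.02 (SE 0.06, 95% interval -0.17 to 0.13) and Acly by 0.03 (SE 0.06), and both overlapped.

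The other pathway genes gave no call in Atxn1 -/- either. Of the 12 other sterol genes 6 had higher means. Groups without overlap were found for 1 of the 12, Mbtps2, against 4.75% of all probe sets. Mbtps2, a protease that releases active SREBP, was above WT on every array, by 0.06 (SE 0.05, interval -0.06 to 0.17). Of the 22 other fatty acid genes 11 had higher means, and 1 of the 22, Acacb, had no overlap, against the same 4.75%. Acacb, the mitochondrial acetyl-CoA carboxylase, was below WT on every array, with a difference of -0.12 (SE 0.05, interval -0.25 to 0.01). Summed alveolar type 2 markers were at 16.25 to 16.35 in Atxn1 -/- and 16.22 to 16.33 in WT. All 9 neutrophil markers had lower means in Atxn1 -/-, with summed levels of 13.11 to 13.35 against 13.00 to 14.79, and the 14.79 was that of WT replicate 3. Macrophage markers had higher means in 8 of 11, at 13.29 to 13.52 against 13.20 to 13.58. Proliferation markers had lower means in 7 of 8, with a median difference of -0.04 and summed levels of 14.19 to 14.24 against 14.15 to 14.35. The part of these markers in the member differences was not tested.

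The difference between the knockout effects was tested as a contrast over all 14 arrays, and no member passed it (0 of 32, smallest limma adjusted p = 0.999553), against 2 of 21212 probe sets, 0.00943%. Before adjustment, 4 of 32 members had a p under 0.05, against 3.24% of all probe sets. These were Srebf2, Insig1 and Fasn, with the higher effect in Atxn1L -/-, and Insig2, with the lower. The effect of Atxn1L -/- minus that of Atxn1 -/- was 0.17 for Srebf2 (SE 0.06, 95% interval 0.03 to 0.31). Insig1 had the larger contrast of 0.27 (SE 0.10, 95% interval 0.05 to 0.49), and Insig2 one of -0.15 (SE 0.06, 95% interval -0.28 to -0.02). For Fasn it was 0.18 (SE 0.08, 95% interval 0.01 to 0.35). The same contrast was 0.30 for Fdps, with a 95% interval of -0.01 to 0.62. Of the 32 members 13 had a higher mean in Atxn1L -/- and a lower one in Atxn1 -/-, and 3 the reverse. A further 11 had a higher mean in both and 5 a lower mean in both. The same split was not counted over all probe sets, so these counts describe the members alone.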

How the data were processed

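Per the labels, total RNA of 14 lung samples was hybridised to 14 arrays, and the deposited values are log2 levels that the authors made with RMA, run apart for the 8 arrays of the Atxn1L set and the 6 of the Atxn1 set. RMA and limma are named per the submitters' processing notes. Which version of the probe sets was used is not stated in the sources used here. Probe sets are numbered by Entrez gene. The platform's gene table named 18786 of 21212, and a further 1917, Acat2 among the members, took their symbol through the Entrez number from the RefSeq gene table, leaving 509 unnamed.

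Each knockout was compared with its own WT with limma 3.58.1 under R 4.3.3 (functions lmFit and eBayes, two-sided, no covariate) on all probe sets, with Benjamini-Hochberg adjustment over all of them and a threshold of 0.05. SE and 95% intervals are those of the fit, and the intervals are not adjusted. The limma step was tested on simulated data. A summed marker level is log2 of the sum of 2 to the power of each level. Values by array are given for the member of smallest p in each role, members with an unadjusted p under 0.05 or without overlap, and the pairs Srebf1 and Srebf2, Insig1 and Insig2, Scd1 and Scd2. Members and lists were chosen with earlier results of these data known. The number of arrays limits the precision. The alternatives were the replicate number as a block, a trended robust prior, array weights, a filter on low levels, joint quantile normalization, median centring, Xist as a covariate, and leaving out each array. Counts of members above 0, with an unadjusted p under 0.05 and without overlap, beside the same shares of all probe sets, were added as results after seeing the data. Some genes of the other sterol list are not reported here.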

Additional observations from a re-analysis of the deposited data

Results flagged for a closer look

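Of 70 groups of 4 arrays (members and the other genes described array by array, in the Atxn1L set), 5 had 1 array far from the other 3, by Dixon's ratio of gap to range against its critical value. Chance flags about 1 in 20 groups. The groups of 3 in the Atxn1 set were not tested. Insig1 on WT replicate 1 was at 10.33, where the other WT arrays were at 10.58 to 10.61. Pmvk on WT replicate 2 was at 8.82, against 8.51 to 8.55. Among the knockout arrays, Mvk on replicate 1 was at 9.50, against 9.42 on the others. Fdft1 on replicate 2 was at 9.91, against 10.15 to 10.19. Acaca on replicate 3 was at 9.46, against 9.40 to 9.41.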

How the results depend on the processing

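No member passed the adjusted threshold in either comparison or in their difference under any alternative run. In the Atxn1L comparison 9 of all probe sets passed, and this count was 2 with the replicate number as a block, 1 over the upper part of mean levels, and 2 to 25 with 1 array left out (16 and 19 without Atxn1L -/- replicates 1 and 2, 25 without WT replicate 4, and 2 to 4 without each other array). In the Atxn1 comparison 0 passed, and 1 with array weights. Correlations of the deviations of same-numbered arrays were 0.04 to 0.38 over the 4 numbers of the Atxn1L set. Over the 3 numbers of the Atxn1 set they were -0.42 to 0.42. With so few arrays these values cannot show whether the numbers pair the samples. With the replicate block 3 members had an unadjusted p under 0.05 in Atxn1L -/- in place of 5, against 10.2% of all probe sets, and these were Srebf2, Acly and Fasn, without Insig1 and Insig2. With array weights 7 did in Atxn1 -/- in place of 0, against 19.5% of all probe sets. With 1 array left out, the median over members was 0.02 to 0.09 in Atxn1L -/- and -0.04 to 0.01 in Atxn1 -/-, above 0 without Atxn1 -/- replicate 1 or 3. Members with higher means in Atxn1L -/- were 19 of 32 with arrays centred on their medians, against 38.8% of all probe sets, and 19 to 27 with 1 array left out. The causes were not tested. The number of arrays limits the precision.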
